A study of Mus musculus with 31 samples.

Results

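Transcripts of the monocyte-recruiting CC chemokines Ccl2, Ccl7, Ccl8 and Ccl12 and of the receptor gene Ccr2 were followed through masseter muscle (MM) after injection of complete Freund's adjuvant (CFA) or collagenase type 2 (Col). They are 5 of 22609 gene symbols in each count table, of which 19277 had a read in any library, and they were chosen by name, not by their values. The 31 libraries were made from the left MM of 31 wild-type C57BL/6J male mice aged 2 to 4 months, 1 library per mouse, and p-values measure the spread between these libraries. In the CFA experiment 3 mice each were labelled 1d post-CFA, 5d post-CFA and vehicle. In the Col experiment 4, 3 and 4 mice were labelled 2d, 6d and 12d after 10U Col. A further 4 mice each received 0.2U Col and carry the group names 1C and RPC, and 3 mice are taken as vehicle. The titles of these 3 call them only controls, and they were assigned to the Col experiment because the other controls carry the name CFA. The paper gives an earlier day for the first and a later day for the last of the high-dose Col groups, and the days of the labels are used here. No source says on which day the vehicle-treated mice were dissected, and the labels do not say which of 1C and RPC was collected first. CFA is an emulsion of oil with killed mycobacteria that drives inflammation, and Col cuts the collagen of the muscle's connective tissue.

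CCR2 is a G protein-coupled receptor of inflammatory monocytes, which need it to leave the bone marrow and to enter injured tissue. CCL2, CCL7 and CCL12 are agonists of CCR2 in the mouse and are made by fibroblasts, endothelial cells, muscle cells and the myeloid cells that have already arrived. Mouse CCL8 has been described mainly as an agonist of CCR8, although it is grouped with the monocyte chemoattractant proteins by sequence and gene position. In injured skeletal muscle, monocytes recruited through CCR2 become macrophages that clear dead fibres and help regeneration.

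Each library held between 14843778 and 29076671 reads assigned to genes, so that 10 counts correspond to between 0.344 and 0.674 CPM, which are counts scaled to a common library size. CPM values are scaled by TMM factors, and RPKM divides CPM by the length of a gene's exons in kb. The 9 skeletal muscle markers were detected in every group, with summed levels from 34010 to 186700 CPM. They summed to 34010 to 61750 CPM at 2d and 39540 to 65200 CPM at 6d post-Col (10U), against 100200 to 148500 CPM in the Col vehicle mice, and the part of this shift in the results at 2d and 6d was not tested. Markers of a neighbouring gland were detected as well, since the sum of 9 salivary gland markers ran from 11.1 CPM to 294800 CPM and was at least 134200 CPM in all 3 mice at 5d post-CFA. Marrow precursor markers summed to between 1.69 and 933.6 CPM. The share of reads ambiguous between genes lay between 0.33% and 0.40% in the 3 groups given 10U Col and between 0.08% and 0.14% in every other group, and counting and the 10U dose cannot be told apart for that quantity. In bulk muscle, fewer cells of a type and less RNA per cell cannot be told apart.

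The 4 ligand genes lie on 1 strand of mouse chromosome 11 within 81229 bp. In build mm9 with GENCODE vM1, Ccl2 takes chr11:81849073-81850955, Ccl7 chr11:81859214-81861027, Ccl12 chr11:81915347-81916902 and Ccl8 chr11:81928687-81930301, all on the plus strand, and Ccl11, which encodes eotaxin, lies between Ccl7 and Ccl12. Ccr2 lies on chromosome 9 at 124016689-124028296. No window of 50 bases in the exons of the 4 ligand genes recurred in the transcripts of another gene, and 1.75% of the windows of Ccr2 recurred in transcripts of other genes. The opposite strand of Ccl2 carries the annotated gene Gm17268, which is not among the symbols counted, and because the strand setting of the counting is not given, reads of Gm17268 and Ccl2 cannot be told apart.

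The 250 bases upstream of Ccl8 and Ccl12 are shown because the fitted differences of these neighbours between 2d and 6d post-Col, given below, had opposite signs. Neither difference passed the test given below, and whether the genes differ from each other was not tested. The sequences are from RefSeq on GRCm38.p6, plus strand, at chr11:82114935-82115184 for Ccl8 and chr11:82101595-82101844 for Ccl12, and capitals mark the motif TATAAA.
Ccl8: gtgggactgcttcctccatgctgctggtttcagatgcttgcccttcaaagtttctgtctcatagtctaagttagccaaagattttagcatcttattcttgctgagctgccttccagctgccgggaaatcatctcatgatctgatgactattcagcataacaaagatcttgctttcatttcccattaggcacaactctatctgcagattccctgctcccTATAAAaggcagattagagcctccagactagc
Ccl12: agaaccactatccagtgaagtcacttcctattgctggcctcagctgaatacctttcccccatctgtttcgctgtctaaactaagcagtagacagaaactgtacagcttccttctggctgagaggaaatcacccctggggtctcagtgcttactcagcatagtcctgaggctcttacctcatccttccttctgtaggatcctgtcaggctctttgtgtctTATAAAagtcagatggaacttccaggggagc
The motif began at -32 from the start site of Ccl8 and at -31 from that of Ccl12, and 12.4% of 32851 upstream windows of this length hold TATAAA on either strand. Searched on both strands, the motif GAGGAA was found at -240 in Ccl8 and at -130 in Ccl12, against 23.3% of windows. Neither the NF-kB consensus nor TGANTCA matched in either window, and 3.9% and 6.75% of windows hold them. Aligned end to end, the windows of Ccl8 and Ccl12 shared 65.2% of 230 aligned bases, against 58.7% and 59.5% for each with the upstream window of Ccr2. These matches describe letters in a window and not bound sites.

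In vehicle-treated MM the ligand transcripts were scarce, and Ccl8 was the most abundant of them per length in all 6 mice. Ccl8 measured 1.04, 2.84 and 4.50 RPKM in the vehicle mice of the CFA experiment and 0.802, 3.32 and 4.70 RPKM in those of the Col experiment. Ccl2 was at or below 1.21 RPKM, Ccl7 at or below 0.833 RPKM and Ccl12 at or below 0.729 RPKM in these 6 mice. The counts behind the levels of Ccl7 and Ccl12 were 2 to 18 and 2 to 8 reads. Ccr2 spread more widely, with 2.09, 5.06 and 15.9 CPM in the CFA vehicle group and 4.55, 2.35 and 14.3 CPM in the Col vehicle group. The mouse with the most Ccr2 in each vehicle group also had the highest sum of marrow precursor markers there, 566.4 and 933.6 CPM. The vehicle groups were compared for the 3 genes that passed the count filter (at least 10 counts in at least 3 libraries). None of Ccl2, Ccl8 and Ccr2 was called up, meaning an adjusted p under 0.05 and a fold change over 2, by edgeR or DESeq2. EdgeR called up 0 of 14070 genes there and DESeq2 11. None of the 3 had an unadjusted p under 0.05, as 326 of all genes did by edgeR. Ccl12 was not tested there and did not overlap, at 0.0818 to 0.222 CPM in the CFA vehicle group and 0.319 to 0.392 CPM in the Col vehicle group. The part of this difference in the fold changes of Ccl12 was not tested.

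At 2d post-Col (10U) all 5 transcripts stood above every vehicle mouse, and Ccl2 and Ccl7 had the highest fitted changes.
Ccl2 measured 33.0, 28.9, 54.3 and 4.95 CPM in the 4 mice, against 0.728, 0.196 and 0.498 CPM in the vehicle group. Ccl7 measured 28.9, 26.6, 50.5 and 2.06 CPM, against 0.319, 0.261 and 0.272 CPM. In both genes the fourth mouse lay far below the other 3 but still above the vehicle range. Ccl12 measured 4.73, 3.44, 3.37 and 1.09 CPM, against 0.319, 0.392 and 0.362 CPM. Ccl8 measured 7.67, 7.26, 9.63 and 3.26 CPM, against 0.410, 1.70 and 2.40 CPM. Ccr2 measured 44.2, 36.0, 59.85 and 32.9 CPM, against the vehicle values above. Unlike the ligands, Ccr2 in the fourth mouse was close to that of the second.

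By edgeR's quasi-likelihood test with Benjamini-Hochberg adjustment over 14373 genes, Ccl2 rose by 5.94 (SE 0.89) on the log2 scale with an adjusted p of 0.0337. Ccl7 rose by 6.54 (SE 1.09, adjusted p 0.0408) and Ccl12 by 3.13 (SE 0.57, adjusted p 0.0483). For Ccl8 and Ccr2 the log2 fold changes were 2.21 (SE 0.63) and 2.60 (SE 0.60) with adjusted p of 0.0706 and 0.0540. Thus 3 of 5 genes were called up, where 1.06% of all genes were, and by DESeq2 all 5 were called up, against 7.72%. All 5 groups of values lay wholly above the vehicle group, as did 11.7% of genes tested. Ccl7 and Ccl12 passed the count filter through the Col-treated mice alone, and without any filter the 3 calls stood, where 160 of 18182 genes were called up. The calls depended on which libraries were kept. Leaving out vehicle mouse 1 or 2 or treated mouse 1, 2 or 3 left 0 of 5 called. The adjusted p of Ccl2 was then between 0.0699 and 0.164. Over all genes 10 to 19 were called up in each of these fits, against 153 with no library left out. Without vehicle mouse 3, Ccl2 and Ccr2 were called (adjusted p 0.0492 and 0.0354), where 353 of 14180 genes were called up. Without treated mouse 4 all 5 were (adjusted p 0.000324 for Ccl7 to 0.0183 for Ccl8), where 1481 of 14160 genes were called up. The fold changes stayed between 5.51 and 6.34 for Ccl2 and between 6.06 and 6.93 for Ccl7 on the log2 scale in these fits.

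**Figure D1:**
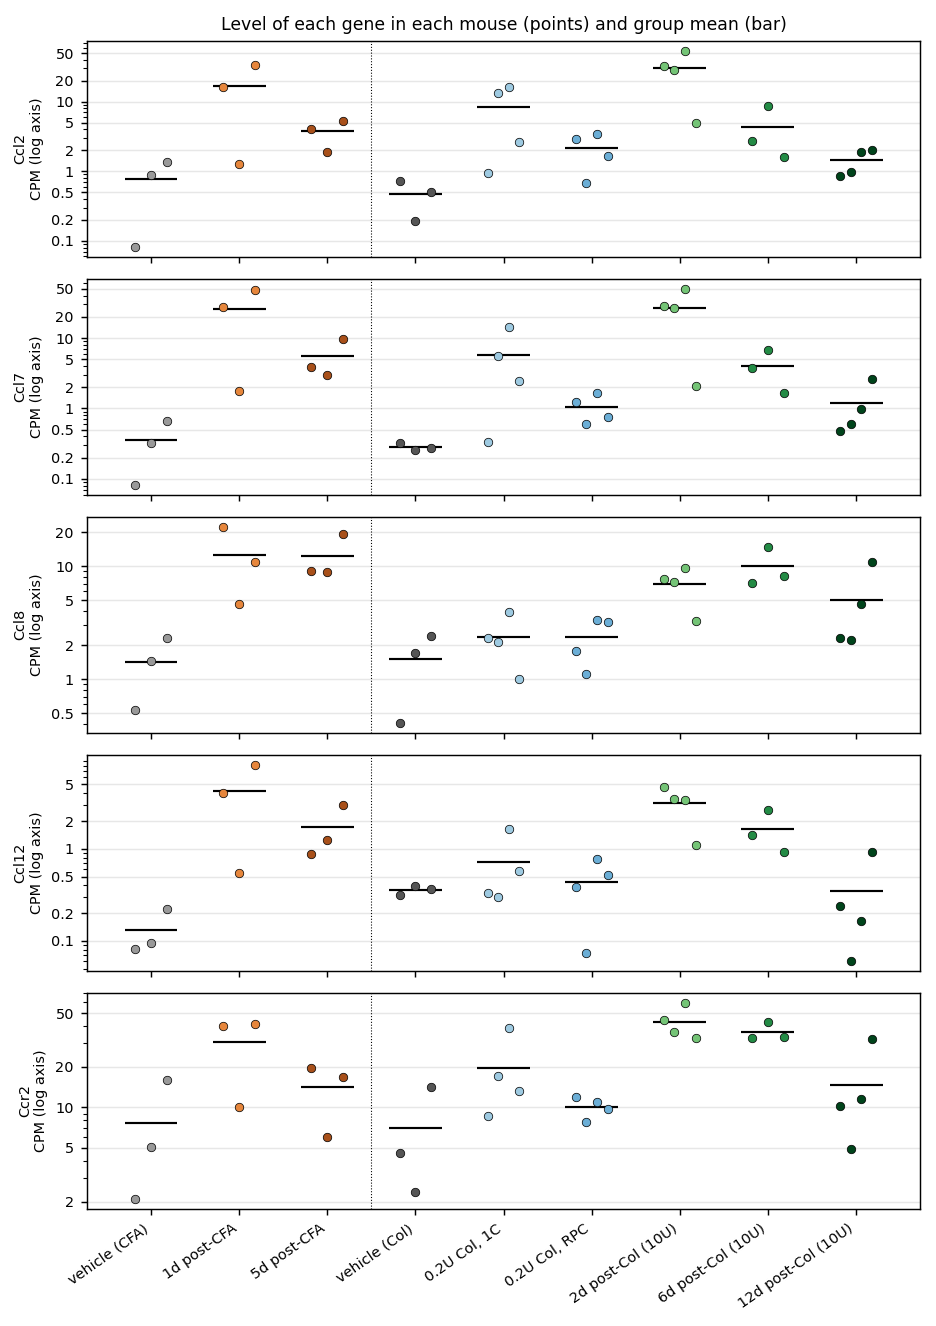
Level of each gene in CPM on a log axis in each of 31 mice (points), with the group mean as a bar; the dotted line parts the CFA from the Col experiment. At 2d post-Col (10U) the 4 mice sit above all 3 vehicle mice for every gene, and the 6d mice overlap the 2d mice in each panel, for Ccl2 at 1.63 to 8.77 against 4.95 to 54.3 CPM and for Ccl8 at 7.06 to 14.8 against 3.26 to 9.63 CPM.

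At 6d post-Col (10U) all 5 genes were still raised over vehicle, with mean levels of Ccl2 and Ccl7 below those at 2d. Ccl8 measured 7.06, 14.8 and 8.225 CPM in the 3 mice. Ccr2 measured 32.7, 42.7 and 33.4 CPM, the narrowest spread of the gene in any group relative to its mean. Both genes were above every vehicle mouse. Ccl2 measured 2.74, 8.77 and 1.63 CPM and Ccl7 3.77, 6.77 and 1.67 CPM. Ccl12 measured 1.41, 2.61 and 0.9185 CPM. The second mouse was highest in all 5 genes, and the lowest of each group was above the highest vehicle value, as in 24.8% of genes tested.

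EdgeR called all 5 genes up, where 10.3% of 14281 genes were, and DESeq2 did so too, against 11.2%. The log2 fold changes were 3.16 (SE 0.74) for Ccl2, 3.81 (SE 0.59) for Ccl7 and 2.72 (SE 0.61) for Ccl8, with adjusted p of 0.0222, 0.00659 and 0.0192. Those of Ccl12 and Ccr2 were 2.19 (SE 0.50) and 2.33 (SE 0.59), with adjusted p of 0.02025 and 0.0269. Again Ccl7 and Ccl12 passed the filter through the treated mice alone, and all 5 calls stood without a filter, where 1562 of 18279 genes were called up. Leaving out treated mouse 1 or 2 left 0 of the 5 called, where 599 and 452 of all genes were called up. Leaving out treated mouse 3 left Ccl2 and Ccl8 (adjusted p 0.0272 and 0.0470), where 993 of all genes were called up. With no library left out 1467 genes were. In these fits Ccl7 and Ccl12 no longer passed the filter, and Ccl2 kept a log2 fold change between 2.18 and 3.56. Without vehicle mouse 1, Ccl12 and Ccr2 had adjusted p of 0.0616 and 0.0781. The salivary gland markers were at 11.1 to 33.8 CPM in the 6d mice and at 91.7 to 149800 CPM in the vehicle mice, and marrow precursor markers at 1.69 to 3.67 against 8.81 to 933.6 CPM. In 1 fit of all 31 libraries with both sums as covariates, an alternative chosen after seeing the data, Ccl8 and Ccr2 were called up at 6d (adjusted p 0.00752 and 0.00310) while Ccl2, Ccl7 and Ccl12 had adjusted p of 0.0701, 0.0605 and 0.08125. The log2 fold changes in that fit were 3.72 (SE 1.57) for Ccl2, 4.44 (SE 1.81) for Ccl7, 3.79 (SE 1.0) for Ccl8, 3.0 (SE 1.33) for Ccl12 and 4.17 (SE 0.93) for Ccr2, all above those without covariates. The fit with covariates called all 5 up at 2d, with adjusted p between 0.00117 and 0.0107. Of 15526 genes it called up 1543 at 2d and 2137 at 6d.

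**Figure D2:**
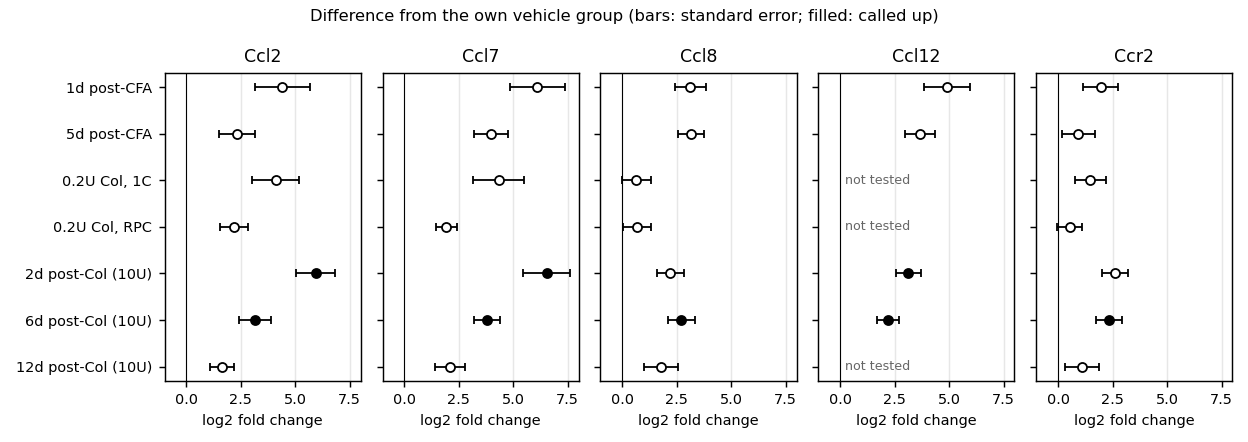
Fitted log2 fold change of each gene against its own vehicle group (points, horizontal axis), with the standard error as a bar; filled points were called up by edgeR. Filled points stand only at 2d (Ccl2, Ccl7 and Ccl12) and 6d (all 5 genes) after 10U Col, and open points with log2 fold changes over 3 stand at 1d and 5d post-CFA and in the 1C group.

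The fitted differences between 2d and 6d had different signs among the ligands. The log2 difference, 6d minus 2d, was -2.79 (SE 0.85) for Ccl2, -2.73 (SE 0.93) for Ccl7, -0.94 (SE 0.54) for Ccl12 and 0.52 (SE 0.39) for Ccl8, and that of Ccr2 was -0.27 (SE 0.22). EdgeR called 0 of 5 genes up or down, against 3.65% of 14513 genes up and 2.73% down, with 2 of 5 at an unadjusted p under 0.05. The adjusted p were 0.0823 for Ccl2, 0.110 for Ccl7, 0.318 for Ccl12 and 0.448 for Ccl8. DESeq2 called Ccl2 and Ccl7 down, with adjusted p of 0.00226 and 0.00659, against 5.61% of genes. Without mouse 4 of the 2d group edgeR called both down too, at -3.14 (adjusted p 0.00658) and -3.12 (adjusted p 0.00333). In that fit 778 of 14234 genes were called down. The values of the groups overlapped for each of the 5 genes, and in Ccl2 and Ccl7 only that mouse lay within the 6d range. In 11.8% of genes the 6d values lay wholly below those at 2d.

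The make-up of the 4 ligand transcripts also differed between these groups. As a share of their summed RPKM, Ccl8 made up 16.9, 17.9, 13.9 and 41.6% in the 2d mice and 58.7, 58.0 and 75.5% in the 6d mice, with no overlap. In the Col vehicle mice it made up 32.95, 73.0 and 76.4%, from only 9 to 53 reads of Ccl8. Ccl2 made up 32.6, 32.1, 35.1 and 28.4% at 2d and 10.22, 15.4 and 6.71% at 6d, also without overlap. The summed level of the 4 ligands was 88.9, 79.2, 135.8 and 15.3 RPKM at 2d and 23.6, 50.1 and 21.3 RPKM at 6d, which do overlap. Ccl12 held a steadier share, 4.62 to 13.2% at 2d and 8.02 to 11.2% at 6d. These shares were looked at after the levels were known and were given no test.

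**Figure D3:**
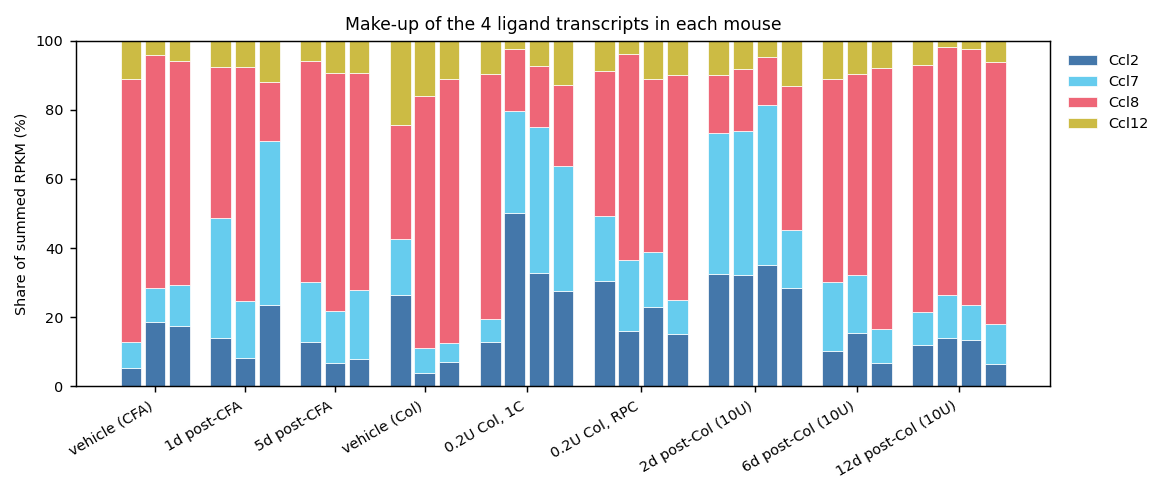
Share of each ligand in the summed RPKM of Ccl2, Ccl7, Ccl8 and Ccl12 (vertical axis, %), 1 bar per mouse, grouped as labelled. Ccl8 holds 71.4 to 75.9% at 12d post-Col (10U) and 58.0 to 75.5% at 6d, but 13.9 to 41.6% at 2d, where Ccl2 and Ccl7 take most of the bar in 3 of 4 mice. In the Col vehicle mice Ccl8 holds 32.95 to 76.4%.

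At 12d post-Col (10U) mean levels were below those at 6d. Ccl2 measured 0.8675, 0.966, 1.88 and 2.05 CPM and Ccl7 0.482, 0.604, 0.996 and 2.63 CPM, both wholly above the vehicle values, as in 9.62% of genes tested. Ccl8 measured 2.31, 2.23, 4.65 and 10.95 CPM and Ccr2 10.3, 4.89, 11.5 and 32.4 CPM, both overlapping vehicle. The fourth mouse was the highest in all 5 genes and also in the sum of macrophage markers, at 1090 CPM, where the other 3 had 164.5 to 326.6 CPM. The log2 fold changes over vehicle were 1.63 (SE 0.56) for Ccl2, 2.10 (SE 0.70) for Ccl7, 1.78 (SE 0.78) for Ccl8 and 1.1 (SE 0.77) for Ccr2. None of the 4 genes tested, 0 of 4, was called up by edgeR (adjusted p 0.199 to 0.491), against 0.67% of genes, with 2 of 4 at an unadjusted p under 0.05, and DESeq2 also called 0, against 1.83%. Without mouse 4 the log2 fold changes of Ccl7, Ccl8 and Ccr2 were 1.28, 1.03 and 0.33, without vehicle mouse 3 that of Ccr2 was 2.19 and that of Ccl8 2.36, and with marker covariates that of Ccr2 was 1.99. Ccl12 had 10 counts in only 1 of the 4 mice and was not tested.

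From 6d to 12d the fitted differences were negative for all 5 genes, from -0.97 (SE 0.57) for Ccl8 to -2.14 (SE 0.73) for Ccl12. By edgeR 0 of 5 were called up, against 5.89% of genes, and 0 down (adjusted p 0.0629 to 0.219), against 6.22%, with 4 of 5 at an unadjusted p under 0.05. DESeq2 called Ccl2, Ccl7 and Ccl12 down, with adjusted p of 0.0362, 0.0337 and 0.0280, against 8.23%. Ccr2 alone of the 5 lay wholly below its 6d values, as did 18.7% of genes. Without mouse 4 of the 12d group edgeR called all 5 down, with adjusted p between 0.000918 for Ccr2 and 0.0401 for Ccl2. In that fit 2107 of 14194 genes were called down.

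After CFA the same 5 transcripts were high at 1d in 2 of 3 mice. Ccl2 measured 16.0, 1.28 and 33.75 CPM at 1d post-CFA, against 0.0818, 0.890 and 1.37 CPM in the vehicle group. Ccl7 measured 27.5, 1.78 and 48.3 CPM, against 0.0818, 0.328 and 0.667 CPM. The second mouse was the lowest in every gene, and its Ccl2 lay within the vehicle range. Ccl8 measured 22.35, 4.66 and 10.95 CPM, against 0.532, 1.45 and 2.30 CPM. Ccl12 measured 3.99, 0.548 and 8.22 CPM, against 0.0818, 0.0937 and 0.222 CPM. Ccr2 measured 40.2, 10.1 and 41.3 CPM, and overlapped the vehicle group.

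The fitted log2 fold changes at 1d were 4.41 (SE 1.25) for Ccl2, 6.11 (SE 1.26) for Ccl7, 3.12 (SE 0.72) for Ccl8, 4.91 (SE 1.04) for Ccl12 and 1.95 (SE 0.80) for Ccr2. EdgeR called 0 of 5 up, as it did 0.0% of 13944 genes, and each of the 5 had an adjusted p of 0.924, although all 5 had an unadjusted p under 0.05, as 588 of all genes did. DESeq2 called Ccl7, Ccl8 and Ccl12 up, with adjusted p of 0.00251, 0.00226 and 0.00108, against 0.33% of genes. These 3 genes lay wholly above vehicle, as did 2.83% of genes, and Ccl12 passed the filter through the CFA-treated mice alone. Without the second CFA mouse edgeR called Ccl7 up, at 6.68 (SE 0.65) with an adjusted p of 0.0275, and 19 of 13752 genes in all.

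At 5d post-CFA the 4 ligands were above every vehicle mouse and Ccr2 was not. Ccl8 measured 9.07, 8.79 and 19.1 CPM, which is within its range at 1d. Ccl2 measured 4.09, 1.925 and 5.35 CPM and Ccl7 3.86, 3.02 and 9.585 CPM. Ccl12 measured 0.884, 1.25 and 3.02 CPM, and Ccr2 19.7, 6.04 and 16.8 CPM. The log2 fold changes were 2.33 (SE 0.82) for Ccl2, 3.96 (SE 0.78) for Ccl7, 3.16 (SE 0.59) for Ccl8, 3.67 (SE 0.69) for Ccl12 and 0.93 (SE 0.75) for Ccr2.

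At 5d edgeR called 0 of 5 up, against 0.998% of 14026 genes, with adjusted p of 0.0697, 0.0605 and 0.0647 for Ccl7, Ccl8 and Ccl12 and with 4 of 5 at an unadjusted p under 0.05. DESeq2 called these 3 up, with adjusted p of 1.73e-05, 3.94e-06 and 0.00125, against 4.01% of genes. Values of 4 of 5 genes did not overlap vehicle, against 14.0% of genes. Ccl12 passed the count filter through the CFA-treated mice alone, and without a filter edgeR likewise called 0 of 5 up, against 134 of 17911 genes. Vehicle mouse 3 had 566.4 CPM of marrow precursor markers, where the other 2 had 2.09 and 4.26 CPM. Without vehicle mouse 3 edgeR called all 5 up, with adjusted p from 0.00134 for Ccl8 to 0.0272 for Ccr2. In that fit 1321 of 13819 genes were called up. The salivary gland markers summed to between 134200 and 168900 CPM in the 3 mice at 5d and to no more than 15260 CPM in the vehicle mice. With both marker sums as covariates 0 of 5 were called up, as were 0 of 15526 genes, with adjusted p from 0.210 to 0.598 for the 5. The log2 fold changes in that fit were 2.99 (SE 1.22) for Ccl2, 4.34 (SE 1.37) for Ccl7, 2.87 (SE 0.80) for Ccl8, 3.66 (SE 1.11) for Ccl12 and 1.45 (SE 0.74) for Ccr2.

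From 1d to 5d post-CFA, Ccl2 and Ccl7 had fitted differences of -2.09 (SE 0.95) and -2.17 (SE 0.98), Ccl12 of -1.25 (SE 0.86) and Ccr2 of -1.03 (SE 0.60), while that of Ccl8 was 0.03 (SE 0.56). All 5 groups of values overlapped, where 10.5% of genes at 5d lay wholly below 1d. EdgeR called 0 of 5 up, against 4.36% of genes, and 0 down (adjusted p 0.273 to 0.985), against 0.676%, with 0 of 5 at an unadjusted p under 0.05. DESeq2 called 0 down, against 2.26%. Without the second mouse at 1d edgeR called Ccl2 and Ccl7 down, at -2.69 and -2.77, with adjusted p of 0.0130 and 0.0141. In that fit 420 of 13911 genes were called down. The Ccl8 share of ligand RPKM was 43.9, 67.6 and 16.9% at 1d and 63.8, 68.9 and 62.6% at 5d, which overlap because of that same mouse.

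Whether CFA and 10U Col changed the genes to different extents was tested as a difference of differences, each against its own vehicle. For 1d post-CFA minus 2d post-Col the estimates were -1.51 (SE 1.52) for Ccl2, -0.41 (SE 1.68) for Ccl7, 0.93 (SE 0.97) for Ccl8, 1.79 (SE 1.13) for Ccl12 and -0.63 (SE 1.03) for Ccr2. EdgeR called 0 of 5 differing (adjusted p 0.760 to 0.959), against 0.0946% of genes. For 5d post-CFA minus 6d post-Col the estimates ran from -1.41 (SE 1.06) for Ccr2 to 1.49 (SE 0.85) for Ccl12, and again 0 of 5 differed (adjusted p 0.272 to 0.943), against 11.3% of genes. In both tests 0 of 5 genes had an unadjusted p under 0.05, as 1011 and 4307 of all genes did by edgeR. DESeq2 called 0 of the 5 differing, against 108 of 14794 and 2764 of 14892 genes. The standard errors reached 1.68 on the log2 scale, and agent, day and experiment cannot be told apart in these tests.

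After 0.2U Col, Ccl2 and Ccl7 had the highest fitted changes, and their values varied between mice. In the 1C group Ccl2 measured 0.934, 13.4, 16.1 and 2.62 CPM and Ccl7 0.3295, 5.53, 14.5 and 2.43 CPM. The first mouse was close to vehicle in both. In the RPC group Ccl2 measured 2.89, 0.670, 3.42 and 1.68 CPM and Ccl7 1.25, 0.596, 1.65 and 0.748 CPM. Scaled within each comparison, both genes lay wholly above vehicle in both groups, as did 4.31% of genes in 1C and 4.93% in RPC, but scaled over all 31 libraries, as printed here, the second RPC mouse had less Ccl2 (0.670 CPM) than the highest vehicle mouse (0.728 CPM). Ccl8 ranged from 1.002 to 3.94 CPM in 1C and from 1.12 to 3.36 CPM in RPC and overlapped vehicle, as did Ccr2 with 8.68 to 38.8 CPM and 7.75 to 11.95 CPM.

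The log2 fold changes in 1C were 4.10 (SE 1.07) for Ccl2, 4.33 (SE 1.18) for Ccl7, 0.65 (SE 0.67) for Ccl8 and 1.48 (SE 0.72) for Ccr2. In 1C edgeR called 0 of 4 up, as it did 0.0% of 14493 genes (adjusted p 0.266 to 0.689, with 2 of 4 at an unadjusted p under 0.05). DESeq2 called Ccl2 and Ccl7 up, with adjusted p of 0.000484 and 0.000977, against 2.23% of genes. Ccl7 passed the count filter through the Col-treated mice alone in 1C, in RPC and at 12d, and without a filter edgeR likewise called 0 of the member genes up in each of these comparisons. Over all genes those fits called up 0 of 18160, 0 of 17993 and 86 of 18266. In RPC the log2 fold changes were 2.20 (SE 0.65) for Ccl2, 1.93 (SE 0.49) for Ccl7, 0.68 (SE 0.64) for Ccl8 and 0.53 (SE 0.56) for Ccr2. There too edgeR called 0 of 4 up, as it did 0.0% of 14269 genes (adjusted p 0.265 to 0.6845, with 2 of 4 at an unadjusted p under 0.05), and DESeq2 called 0, against 0.813%, and gave no adjusted p for the 3 ligands. Ccl12 had 10 counts in 2 of 4 mice in each group and was not tested. All comparisons of the Col experiment share the same 3 vehicle mice, so their fold changes are not independent.

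Ranked by mean CPM over the 9 groups, each gene had its own order. Ccl2 was highest at 2d post-Col (10U) with 30.3 ± 20.2 CPM (SD, n = 4), followed by 1d post-CFA with 17.0 ± 16.3 (SD, n = 3) and 1C with 8.26 ± 7.60 (SD, n = 4). Ccl7 had the same first 3 groups, with 27.0 ± 19.8, 25.9 ± 23.3 and 5.70 ± 6.26 CPM. For Ccl8 the order began with 1d post-CFA at 12.7 ± 8.97 CPM and 5d post-CFA at 12.3 ± 5.85 CPM, and 6d post-Col (10U) at 10.0 ± 4.19 CPM preceded 2d at 6.95 ± 2.67 CPM. Ccl12 was highest at 1d post-CFA with 4.25 ± 3.84 CPM. Ccr2 was highest at 2d post-Col (10U) with 43.2 ± 12.1 CPM and next at 6d with 36.3 ± 5.60 CPM. In all 5 orders the ranges of each pair of neighbouring groups overlapped.

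Monocytes carry CCR2, and the level of Ccr2 was set beside lists of myeloid markers. At 6d post-Col (10U) edgeR called all 12 macrophage markers up over vehicle, where 10.3% of genes were, and their sum was 1483 to 2922 CPM against 159.1 to 502.1 CPM. Of the 10 monocyte markers, 3 were called up at 6d (Ms4a4c, Ms4a6c and Cd14) and 2 down (Chi3l3 and Hp), where 1199 of 14281 genes were called down, and the list's median log2 fold change was 0.25 against 0.01 over all genes. At 2d, 1 of 12 macrophage markers (Fcgr1) and 1 of 10 monocyte markers (Ms4a6c) were called up by edgeR, against 1.06% of genes, with median log2 fold changes of 1.47 and 1.04 against 0.02. DESeq2 called 9 of 12 and 4 of 10 up at 2d, against 7.72% of genes. The sum of monocyte markers was 212.9 to 425.6 CPM at 2d and 128.8 to 198.1 CPM at 6d, while Ccr2 was 32.9 to 59.85 and 32.7 to 42.7 CPM. Of 8 neutrophil markers 7 were counted, and none was called up in either comparison, while S100a8 and S100a9 were called down at 6d. The sum of neutrophil markers was 22.55 to 34.34 CPM at 6d, against 282.1 and 891.4 CPM in vehicle mice 1 and 3. Vehicle mouse 2 lay below all 3 mice at 6d. Marrow precursor markers summed to 192.0 and 933.6 CPM in vehicle mice 1 and 3 and to 8.81 CPM in vehicle mouse 2. The part of marrow signal in the 2 calls down was not tested. The part of any of these cell types in the level of Ccr2 was not tested.

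**Figure D4:**
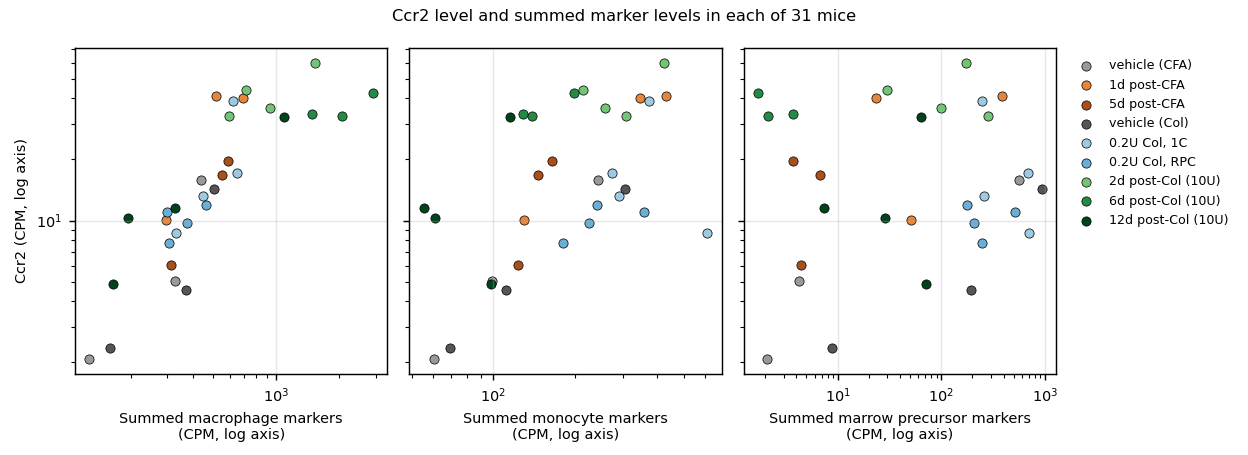
Ccr2 level in CPM (vertical, log axis) against the summed CPM of macrophage, monocyte and marrow precursor markers (horizontal, log axes) in each of 31 mice, coloured by group. At 6d post-Col (10U) Ccr2 is at 32.7 to 42.7 CPM with 1483 to 2922 CPM of macrophage markers and at most 3.67 CPM of marrow precursor markers, whereas the vehicle mouse of the Col experiment with 933.6 CPM of marrow precursor markers has 14.3 CPM of Ccr2.

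Receptors and binding proteins of these ligands were read from a list in the same comparisons. Ccr1, a receptor that also binds CCL7, measured 22.4, 27.4, 47.5 and 3.79 CPM at 2d and 4.79, 9.15 and 4.30 CPM at 6d, against 0.522 to 8.29 CPM in vehicle mice. Its fitted log2 changes of 2.75 (SE 1.02) and 0.69 (SE 0.81) had edgeR adjusted p of 0.110 and 0.541, and DESeq2 called it up at 2d (adjusted p 0.0119) and not at 6d (adjusted p 0.518). Ccrl2, which encodes an atypical receptor that binds chemerin, fell by 1.63 (SE 0.29) on the log2 scale at 6d, with an adjusted p of 0.0100, from 20.03 ± 6.57 (SD, n = 3) to 6.43 ± 1.41 CPM (SD, n = 3). At 2d its log2 fold change was -1.7 (SE 0.46), with an edgeR adjusted p of 0.0665 and a DESeq2 adjusted p of 0.00549. Its values there lay wholly below vehicle, as in 1795 of 14373 genes. So did those of the 0.2U groups, as in 864 of 14493 genes in 1C and 1023 of 14269 in RPC. The log2 fold changes in 1C and RPC were -0.98 (SE 0.26) and -0.96 (SE 0.23), short of the fold threshold. DESeq2 adjusted p were 0.0372 and 0.0183. The edgeR adjusted p was 0.265 in both, where edgeR called 0 genes down.

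Nup85, Darc, Ccbp2, Ccr3 and Ccr8 were not called by edgeR in either 10U comparison, and DESeq2 called Ccbp2 down at 6d (adjusted p 0.0209). Nup85, whose protein binds the tail of CCR2, had a log2 fold change of -0.58 (SE 0.17) at 6d with an adjusted p of 0.0446, short of the fold threshold. Darc, the chemokine-binding protein of venules, and Ccbp2, a scavenging receptor of lymphatic endothelium, had -0.54 (SE 0.33) and -2.02 (SE 0.67) at 6d, with adjusted p of 0.247 and 0.0589. Ccr3 had a mean of 0.596 CPM at 2d and 0.228 CPM at 6d, and was tested against vehicle only in 1C (adjusted p 0.326) and at 2d (adjusted p 0.173). Ccr8, described as the receptor of mouse CCL8, was close to absent from the counts, with at most 0.0593 CPM as a group mean (12d), and was tested in no comparison. None of these genes was called in the comparisons of CFA, 0.2U Col or 12d with vehicle by edgeR. In those comparisons edgeR called up at most 0.998% of genes and called down at most 55, of 14176 at 12d.

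Of 16 other CC chemokine genes, 9 were tested at 2d and 9 at 6d. At 2d edgeR called up Ccl6 by 3.26 (SE 0.60) and Ccl9 by 2.90 (SE 0.57) on the log2 scale, and none down. Of all genes 1.06% were called up there. In 1 of 7 fits that left out a library each call was kept. DESeq2 called Ccl3 and Ccl4 up as well and Ccl11 down at 2d, where 7.72% of genes were called up and 927 of 14373 down. The change of Ccl3 was 5.36 (SE 1.12), wholly above vehicle, with an edgeR adjusted p of 0.0504 and a DESeq2 adjusted p of 0.000173. At 6d edgeR called up Ccl3 by 5.69 (SE 0.79), Ccl5 by 2.60 (SE 0.81) and Ccl22 by 2.93 (SE 0.58), which attract monocytes and T cells. It called down Ccl11 and Ccl24, both eotaxins. Of all genes 10.3% were called up at 6d, and 1199 of 14281 down. Of the fits that left out a library, 3 of 3 kept the call of Ccl3, 5 of 6 that of Ccl22, 1 of 6 that of Ccl5 and 2 of 6 that of Ccl24. Ccl3 was at or below 0.0906 CPM in the vehicle mice, so its fold change rests on counts near 0. The list's median log2 fold changes were 1.0 at 2d and 0.95 at 6d, against 0.02 and 0.01 over all genes. From 2d to 6d, with 10 of the list tested, edgeR called Ccl6, Ccl9 and Ccl24 down, against 2.73% of genes. It called Ccl5 up, against 3.65%. In the other comparisons with vehicle edgeR called only Ccl3 at 5d post-CFA, at 4.54 (SE 0.73) with an adjusted p of 0.0447. There 0.998% of genes were called up, and 1 of 3 such fits kept the call. DESeq2 called up Ccl6 and Ccl9 at 1d post-CFA (adjusted p 0.0130 and 0.0140), Ccl3, Ccl4 and Ccl6 at 5d post-CFA (adjusted p 0.00212, 0.00596 and 0.0319) and Ccl9 in 1C (adjusted p 0.0406). Its shares over all genes were 0.33%, 4.01% and 2.23%.

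Ccl11 lies among the 4 ligand genes and went the other way at 6d. It measured 13.8, 11.65 and 26.9 CPM at 6d against 44.7, 27.4 and 48.0 CPM in vehicle mice, and its fitted change was -1.2 (SE 0.36) on the log2 scale, with an adjusted p of 0.0440. Its values at 2d were 10.19, 11.1, 20.5 and 26.2 CPM, with -1.21 (SE 0.38) and an adjusted p of 0.0814. The call at 6d stood in 2 of 6 fits that left out a library (adjusted p 0.0251 to 0.151) and with marker sums as covariates (adjusted p 0.0299). Ccl7 upstream of it and Ccl12 downstream of it were called up in the same mice.

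**Figure D5:**
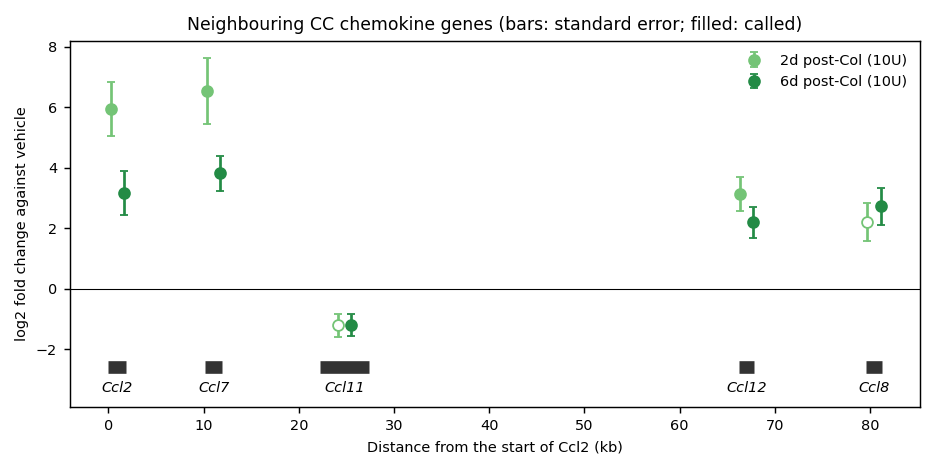
Fitted log2 fold change against vehicle (vertical axis, bars are standard errors, filled points were called by edgeR) of the 5 neighbouring CC chemokine genes by distance from the start of Ccl2 in kb, at 2d and 6d post-Col (10U). Ccl11 is the only gene below 0, at -1.21 and -1.2, and the differences of Ccl2 and Ccl7 are lower at 6d than at 2d whereas that of Ccl8 is not.

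Of 14 inducers and regulators of Ccl2 transcription or mRNA decay, 13 were tested in each of these comparisons. None was called at 2d by edgeR, where 1.06% of genes were called up, while DESeq2 called 4 up, against 7.72%. At 6d edgeR called 2 of 13 up, where 10.3% of genes were, and DESeq2 called 3 up, against 11.2%. EdgeR called Il6, an inflammatory cytokine, at 3.08 (SE 0.79) and Nfkbiz, a nuclear cofactor of NF-kB, at 1.31 (SE 0.35) on the log2 scale. Their adjusted p were 0.0277 and 0.0309, and 2 of 3 and 2 of 6 fits that left out a library kept these calls. Il6 was rare, at 0.480 ± 0.0539 CPM at 6d against 0.0587 ± 0.0662 CPM in vehicle mice, and passed the count filter through the Col-treated mice alone. At 2d, where it was not called, Il6 measured 1.21, 2.84, 9.58 and 0 CPM. Nfkbia, the NF-kB inhibitor, had -0.92 (SE 0.24) with an adjusted p of 0.0287, short of the fold threshold. From 2d to 6d edgeR called Nfkbia down, the only call among 13 tested, where 2.73% of genes were called down. The median log2 fold change of the list was 0.31 at 2d and 0.40 at 6d, against 0.02 and 0.01 over all genes. In the comparisons of CFA, 0.2U Col and 12d with vehicle none of the list was called by edgeR, where at most 0.998% of genes were called up.

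Across all 31 libraries Ccl2 and Ccl7 were each other's most alike gene among 15526, with a Pearson r of 0.959 and a Spearman rho of 0.952 of log2 CPM. The next for Ccl2 were Ccl9 (r = 0.913, rho = 0.900) and Ccl6 (r = 0.903, rho = 0.904), and for Ccl7 Fcgr1, an IgG receptor of macrophages (r = 0.902, rho = 0.912), and Ccl12 (r = 0.899, rho = 0.853). Ccl12 had Ccl7 first, then Fcgr1 (r = 0.892, rho = 0.867) and Ccl3 (r = 0.888, rho = 0.868). Ccl8 had as its first genes Zbp1 (r = 0.885, rho = 0.872), Fcgr4 (r = 0.880, rho = 0.867) and Oas2 (r = 0.870, rho = 0.929), and for Ccl2 it ranked 664 (r = 0.649, rho = 0.669). Zbp1, a sensor of nucleic acids, and Oas2, an antiviral enzyme, are known as genes induced by interferon. For Ccr2 the first 3 were Msr1, the macrophage scavenger receptor (r = 0.960, rho = 0.973), and the myeloid receptor genes Gp49a (r = 0.946, rho = 0.965) and Lilrb4 (r = 0.945, rho = 0.940), which are near-identical copies whose reads the counting could have split. The 31 points fall into 9 groups and share depth and composition within libraries, so these values describe likeness and carry no test.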

How the data were processed

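The authors made stranded poly(A) libraries from MM, sequenced single-end reads and aligned them to mouse build mm9 with TopHat2, and the submitters' processing notes also name bcl2fastq and HTSeq, without versions. The deposited values are raw counts of reads per gene symbol, not normalized or filtered. The annotation and strand setting of the counting are not given in the sources used here, and the closing lines of reads assigned to no gene were left out of library sizes. Those lines carry a different prefix in the CFA and Col experiments, and reads aligning to more than 1 place were 34.6 to 47.9% of the reads on genes and in those lines. No pair among 465 pairs of libraries was identical.

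A gene entered a comparison when 3 or more of its libraries had 10 or more counts. Tests used edgeR 4.0.16 under R 4.3.3 (TMM, quasi-likelihood test, libraries of the compared groups only), with Benjamini-Hochberg adjustment over all genes tested and SE taken as the absolute log2 fold change over the square root of F. Changes over 2-fold with an adjusted p under 0.05 were called. Alternatives were DESeq2 1.42.0, its size factors in edgeR, no count filter, 1 fit of all 31 libraries, pooled vehicles, no fold threshold, the replicate number as a block, each library left out and, chosen after seeing the data, marker covariates. Likeness used log2 CPM with a prior count of 2. Scripts were tested on simulated data.

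Replicate numbers come from the labels and belong to different mice. Deviations of same-numbered mice from their group means correlated above 0.1 in every pair only for 1d post-CFA against vehicle (r 0.165 to 0.592) and for vehicle against vehicle (0.115 to 0.677), where the block called no further member. The block called up 1 of 13944 genes in the first of these comparisons and 0 of 14070 in the second.

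Named genes are the 5 members, tested genes of the receptor list, called genes of the other lists and the 3 genes most alike to each member. A gene of the receptor list is not reported here. The members and lists were chosen with earlier results of these data known. RPKM used exon lengths of GENCODE vM1 (mm9), and upstream sequences came from RefSeq (GRCm38.p6), in which Ccl8, Ccl12 and Ccr2 matched. Counting error alone limits precision at low counts, and the replicate spread includes it.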

Additional observations from a re-analysis of the deposited data

How the results depend on the processing

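The number of the 5 genes called up depended on the setting. Leaving out each library in turn gave 0 to 1 for 1d post-CFA, 0 to 5 for 5d post-CFA, 0 to 5 for 2d post-Col (10U) and 0 to 5 for 6d post-Col (10U). Over all genes the same fits called up 0 to 19, 0 to 1321, 10 to 1481 and 452 to 2105. DESeq2 called 3 at 1d post-CFA, 3 at 5d post-CFA, 2 in the 1C group and 5 at 2d post-Col. The fit of all 31 libraries, that fit with marker covariates and the pooled vehicles each called 5 at 2d, and pooled vehicles called 1 (Ccl7) in 1C. Over all genes these called up 1239, 1543 and 1360 at 2d, and 223 in 1C. At 6d the fit of all 31 libraries called every member but Ccl12 (adjusted p 0.0576), where 1556 of 15526 genes were called up. With marker covariates 2 were called at 6d, where 2137 of 15526 genes were called up. With the replicate number as a block, 3 were called at 5d post-CFA, 5 at 2d and 3 at 6d, where same-numbered mice correlated between -0.314 and 0.363, -0.249 and 0.135, and -0.226 and 0.0464, so that the mice shared only a number. Over all genes the block fits called up 123 of 14026, 1538 of 14373 and 785 of 14281. The cause of these changes was not tested.

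In the comparisons of treated with vehicle mice, each log2 fold change that was tested kept its direction in the alternatives run, and Ccl12 was not tested in 1C, RPC or at 12d. Signs changed in other comparisons, for estimates that passed no threshold. Ccl8 from 1d to 5d post-CFA was -0.01 with DESeq2, -0.02 with its size factors, -0.04 in the fit of all libraries and -0.21 with marker covariates, and -0.44 to 0.7 with a library left out. With marker covariates Ccr2 from 2d to 6d was 1.2, Ccl8 between the vehicle groups 0.35, and the difference between 5d post-CFA and 6d post-Col -0.10 for Ccl7 and -0.92 for Ccl8. Left-out libraries gave between the vehicle groups -0.09 to 1.22 for Ccl2, -0.69 to 0.45 for Ccl8 and -1.07 to 1.17 for Ccr2, between 1d post-CFA and 2d post-Col -1.23 to 0.44 for Ccl7 and -1.66 to 0.49 for Ccr2, and between 5d post-CFA and 6d post-Col -1.44 to 0.14 for Ccl2, -0.6 to 1.06 for Ccl7 and -0.12 to 1.04 for Ccl8.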
